A study of Mus musculus with 6 samples.

Results

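Glul, Oat, Slc1a2, Rhbg, Lgr5, Axin2, Rnf43, Znrf3, Tbx3 and Rgn are 10 hepatocyte genes of the pericentral zone of the liver lobule that are known to depend on Wnt/β-catenin signalling. They were taken by name from the 23284 genes counted in each library, as a check on liver zonation, and the rule that names them uses no measured value. All 10 were among the 12453 genes that passed the filter on low counts. The livers came from male FXR-floxed mice that were injected in the tail vein at 8 weeks of age with 2 AAV8 vectors. One vector carried Cre recombinase under the hepatocyte-specific TBG promoter and was given to every mouse, so both groups carry the deletion of mouse FXR in hepatocytes. The other carried FXR under the same promoter, either wild type (FXR-WT, 3 livers) or with tyrosine 67 replaced by phenylalanine (Y67F-FXR, 3 livers). The mice were kept for 4 weeks, and before the livers were taken all of them ate chow containing 0.5% cholic acid, a primary bile acid that activates FXR, for 6 h. The TBG promoter limits both Cre and the transgene to hepatocytes, so the other cells of these livers keep their own FXR gene, and the comparison is between 2 forms of FXR under cholic acid feeding.

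Wnt ligands and R-spondins made by endothelial cells of the central vein keep β-catenin active in the hepatocytes next to that vein. R-spondins act through receptors of the Lgr family, which restrain the ubiquitin ligases Rnf43 and Znrf3, and these in turn remove Wnt receptors from the cell surface. In the nucleus β-catenin acts with TCF/LEF factors on genes such as Axin2, a feedback inhibitor, and Glul, the glutamine synthetase that captures ammonium left over from the periportal urea cycle. Periportal hepatocytes express the urea cycle and gluconeogenic enzymes, so both zones are read side by side when zonation is checked.

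The TCF/LEF word CTTTGAT was searched on both strands of RefSeq promoter windows that run from 250 bases before to 50 bases after a transcript start (assembly GRCm38.p6). Windows were found for 5 of the 10 genes, Glul, Slc1a2, Oat, Rnf43 and Axin2, and 1 of their 6 windows held the word. The match lay before a start inside Slc1a2, 48199 bases downstream of the gene's first base in RefSeq, on the strand opposite to the gene, at chr2:102706220-102706249 including its flanks. These bases overlap no exon of the GENCODE vM21 annotation, and the table holds no window at the first base of Slc1a2. The windows of Glul and Oat and 1 window of Rnf43 lay at the gene's first base, and the other Rnf43 window and that of Axin2 lay 36810 and 2521 bases inside. The stretch is shown because Slc1a2 was the only one of these genes with the word, and capitals mark the word as it reads on the plus strand.
Slc1a2 internal start: agaagagggacATCAAAGgccccaaatggt
The same word stood in 3.73% of all 32851 windows. The related word CTTTGAA was in 5.14% and the FXR inverted repeat IR-1, searched in its perfect form, in 0.0396% of all windows, and neither was in a window of these genes. A match is a run of letters and no measure of binding.

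The 6 libraries held from 19551113 to 22053320 reads on genes. Values below are CPM, read counts divided by the library total after scaling by TMM factors, and levels of different genes are compared as TPM, which also divides by exon length. Calls required an adjusted p below 0.05 together with a fitted fold of more than 1.5. Adjusted p-values are from the quasi-likelihood test of edgeR, corrected by Benjamini-Hochberg over all 12453 genes. All p-values are two-sided and measure the spread between these livers. With 3 livers against 3, an exact permutation test cannot go below 0.1. Nr1h4, the gene for FXR, was at 152, 209 and 198 CPM in FXR-WT and at 169, 169 and 186 CPM in Y67F-FXR. Its groups overlapped (log2 fold change -0.094, adjusted p = 0.861), and reads of the transgene cannot be told apart in these counts from those of the mouse gene. The paper describes its flag-FXR as human and does not state the species of the FXR in the AAV vectors. How far reads of a human transgene would be counted on the mouse gene was not tested. In bulk liver RNA, fewer cells of a type and less RNA per cell cannot be told apart.

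None of the 10 genes was called between Y67F-FXR and FXR-WT, where 0.972% of all tested genes were called, 0.546% higher and 0.426% lower. In the same test 1 of the 10, Oat, had an unadjusted p under 0.05 and was higher. Of all tested genes 13.4% had such a p, and 6.75% had it and were higher. DESeq2 called Oat and none of the other 9, and it called 3.46% of all tested genes. The fitted values were higher in Y67F-FXR for 8 of the 10 genes, beside 52% of all tested genes. Their median log2 fold change was 0.24 and that of all tested genes 0.012. The groups did not overlap for 2 of the 10, Oat and Slc1a2, both higher in Y67F-FXR, where 10.2% of all genes were apart in that direction.

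FXR-WT replicate 1 had the lowest median of the 6 livers over these genes. It had the lowest CPM of the 6 livers for 8 of the 10 genes, all except Rnf43 and Rgn, and it was lowest for 21.2% of all tested genes. Expressed as a deviation of log2 CPM from the mean over the 6 livers, the 10 genes had a median of -0.51 in FXR-WT replicate 1 and from 0.0085 to 0.25 in the other livers. For the 4 glutamine, glutamate and ammonium genes its median was -0.75, with 0.063 to 0.27 in the other livers. For the 4 Wnt receptors and feedback genes it was -0.43, and Y67F-FXR replicate 2 was also low (-0.34). Axin2 (4.35 and 4.36 CPM) and Lgr5 (2.79 and 2.95 CPM) were close in these 2 livers, and Rgn was lowest in Y67F-FXR replicate 2. The median over all tested genes in FXR-WT replicate 1 was 0.0037. Without this liver the median log2 fold change of the 10 genes was 0.032, with 7 fitted higher and 0 called by edgeR, and 2 had an unadjusted p under 0.05, Oat (higher) and Rgn (lower). In the same run, 6429 of the 12453 genes were fitted higher, 66 were called and 1528 had such a p. With each of the other livers left out the median ran from 0.14 (without Y67F-FXR replicate 3) to 0.35 (without FXR-WT replicate 2).

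**Figure D1:**
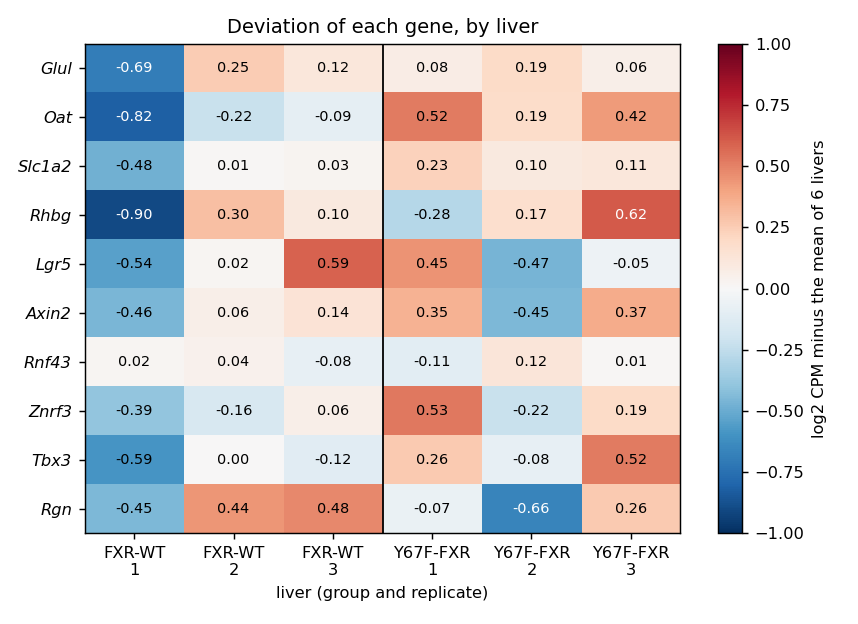
Heat map of the 10 genes (rows) in the 6 livers (columns), where each cell gives log2 CPM minus the mean over the 6 livers, blue below and red above that mean. The column of FXR-WT replicate 1 runs from -0.90 (Rhbg) to 0.02 (Rnf43) and is blue for all genes except Rnf43.

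The livers also differed in the relative level of short and long genes. When tested genes were cut into 5 classes by exon length, the shortest class (median 1152 bases) had a median deviation of 0.20 in FXR-WT replicate 1. It was 0.22 in the second Y67F-FXR liver, -0.18 in the third FXR-WT liver and -0.20 in the first Y67F-FXR liver. In the longest class (median 6201 bases) these signs were opposite. After the median of each gene's own length class was subtracted, the deviation in FXR-WT replicate 1 was -0.68 for Glul, -0.86 for Oat, -0.95 for Rhbg and -0.64 for Rgn, beside -0.69, -0.82, -0.90 and -0.45 before. For 5 of the 6 genes with longer exons it moved towards 0, from -0.48 to -0.35 for Slc1a2, from -0.59 to -0.46 for Tbx3, from -0.39 to -0.26 for Znrf3, from -0.46 to -0.38 for Axin2 and from -0.54 to -0.47 for Lgr5, and for Rnf43 it moved from 0.019 to 0.095. With offsets for gene length in the fit, the median log2 fold change of the 10 genes was 0.23.

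The 10 genes spanned a wide range of levels. Oat (mean 1041 TPM), Glul (638 TPM) and Rgn (535 TPM) formed the upper end, with ranges over the 6 livers that overlapped between neighbours. Slc1a2 followed at 23.2 TPM, below every liver's value for Rgn and above every liver's value for Tbx3 (10.4 TPM), Rnf43 (9.43 TPM) and Rhbg (8.00 TPM), whose ranges overlapped. Axin2 (2.43 TPM), Lgr5 (1.54 TPM) and Znrf3 (1.47 TPM) were lowest, and their ranges overlapped with each other and not with that of Rhbg. These 3 rested on 54 to 163 reads per library, so counting error is larger for them than for Glul, which had at least 13251 reads.

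**Figure D2:**
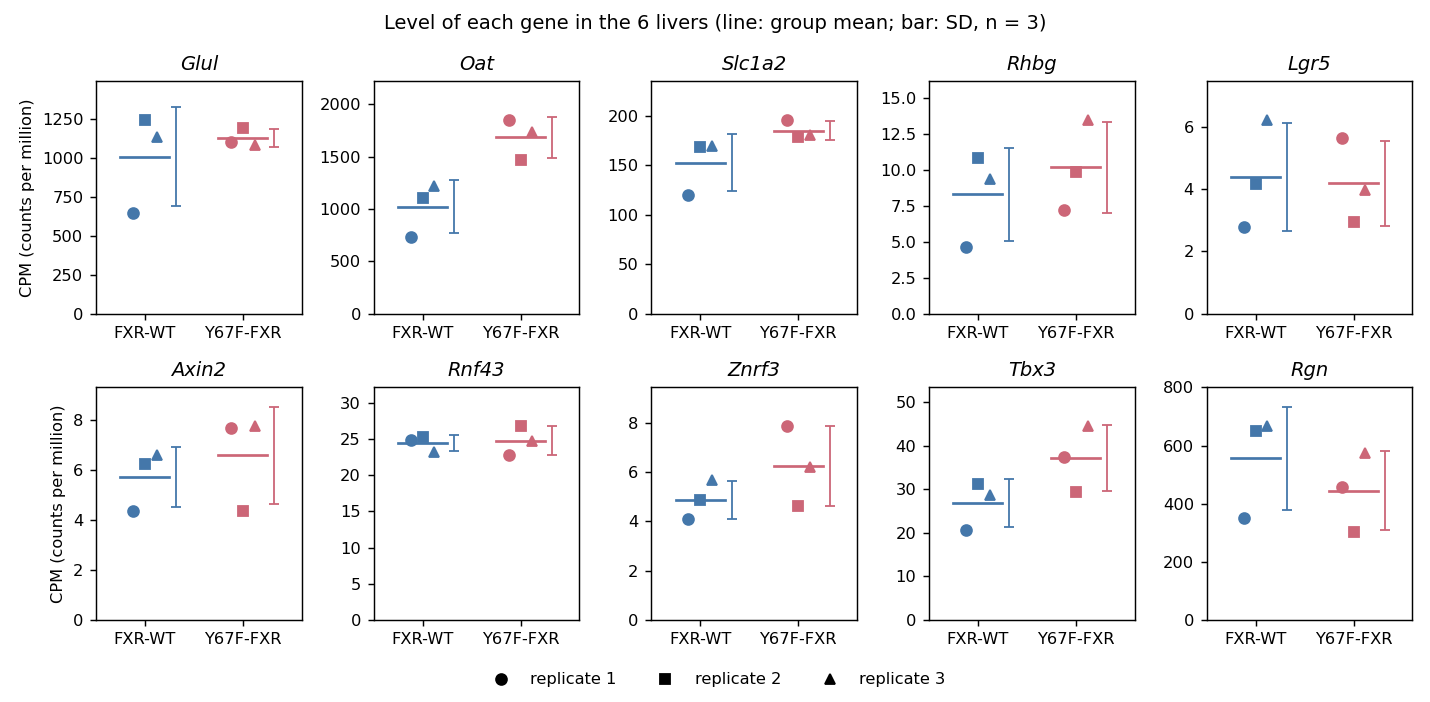
CPM of the 10 genes in each of the 6 livers, 1 panel a gene, with the mean and SD of the 3 livers of each group. The Y67F-FXR livers lay above the FXR-WT livers without overlap for Oat and Slc1a2, and the other 8 genes overlapped.

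Of the genes that handle glutamine, glutamate and ammonium, Glul encodes glutamine synthetase (chromosome 1, 155747075-155756844, plus strand, mm9, 7 exons). Its CPM was 648, 1247 and 1135 in FXR-WT and 1103, 1197 and 1088 in Y67F-FXR. FXR-WT replicate 1 was far below the other livers and the other 5 overlapped. The fitted log2 fold change was 0.16 (95% CI -0.37 to 0.69, adjusted p = 0.845), and without FXR-WT replicate 1 it was -0.080.

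Oat encodes ornithine aminotransferase, which turns ornithine into glutamate semialdehyde (chromosome 7, 139749158-139768081, minus strand, mm9, 10 exons). It was measured at 735, 1108 and 1218 CPM in FXR-WT and at 1852, 1471 and 1735 CPM in Y67F-FXR. Every Y67F-FXR liver was above every FXR-WT liver, and the mean was 1020.3 ± 253 CPM in FXR-WT and 1686 ± 195 CPM in Y67F-FXR (SD, n = 3). The log2 fold change was 0.72 ± 0.20 (SE, 95% CI 0.26 to 1.19). The unadjusted edgeR p was 0.00718 and the adjusted p = 0.162, so the gene was not called. With DESeq2 the adjusted p was 0.0251, and over all alternatives it ran from 0.0251 to 0.424. Without FXR-WT replicate 1 the log2 fold change was 0.53 (edgeR adjusted p = 0.210).

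Slc1a2 encodes a plasma membrane glutamate transporter (chromosome 2, 102498840-102630941, plus strand, mm9). The values were 120, 169 and 169.9 CPM in FXR-WT and 196, 178 and 180.1 CPM in Y67F-FXR. The groups were apart, and the gap between the highest FXR-WT and the lowest Y67F-FXR liver was small beside the distance of FXR-WT replicate 1. The log2 fold change was 0.27 (95% CI -0.088 to 0.64, adjusted p = 0.523), and 0.12 without FXR-WT replicate 1.

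Rhbg encodes an ammonium transporter of the pericentral plasma membrane (chromosome 3, 88046796-88058606, minus strand, mm9). It was found at 4.64, 10.9 and 9.42 CPM in FXR-WT and 7.19, 9.87 and 13.5 CPM in Y67F-FXR, and the groups overlapped. The log2 fold change of 0.29 (95% CI -0.49 to 1.07, adjusted p = 0.787) was 0.0039 without FXR-WT replicate 1.

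Among the Wnt receptors and feedback regulators, Lgr5, an R-spondin receptor (chromosome 10, 114887370-115024836, minus strand, mm9), was at 2.79, 4.17 and 6.22 CPM in FXR-WT and 5.64, 2.95 and 3.96 CPM in Y67F-FXR. Axin2, which takes part in the destruction of β-catenin and is induced by it (chromosome 11, 108781663-108812095, plus strand), was at 4.35, 6.25 and 6.61 CPM and at 7.68, 4.36 and 7.78 CPM. The groups overlapped for both, with log2 fold changes of -0.072 (95% CI -0.86 to 0.72, adjusted p = 0.965) and 0.20 (95% CI -0.41 to 0.82, adjusted p = 0.822). Without FXR-WT replicate 1 they were -0.32 and 0.035, and with each liver left out in turn Lgr5 ran from -0.35 to 0.27 and Axin2 from 0.035 to 0.42. Rnf43 and Znrf3 are the ligases that remove Wnt receptors. Rnf43 (chromosome 11, 87476589-87549041, plus strand) was at 24.9, 25.3 and 23.2 CPM in FXR-WT and 22.8, 26.8 and 24.8 CPM in Y67F-FXR. Its CV was 4.59% in FXR-WT, the lowest of the 10 genes in that group, and 8.05% in Y67F-FXR, where Glul (5.22%) and Slc1a2 (5.25%) were lower. Its log2 fold change was 0.020 (95% CI -0.26 to 0.30, adjusted p = 0.974). Znrf3 (chromosome 11, 5176332-5344850, minus strand) was at 4.11, 4.85 and 5.66 CPM in FXR-WT and 7.87, 4.64 and 6.21 CPM in Y67F-FXR, with a log2 fold change of 0.36 (95% CI -0.18 to 0.90, adjusted p = 0.597). It was 0.24 without FXR-WT replicate 1 and 0.16 without Y67F-FXR replicate 1, the liver with its highest value. A change in Wnt feedback of the size covered by these intervals could not be told apart from the spread between livers.

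Tbx3, a T-box transcription factor (chromosome 5, 120120678-120134610, plus strand), was at 20.6, 31.1 and 28.6 CPM in FXR-WT and 37.3, 29.4 and 44.5 CPM in Y67F-FXR. The groups overlapped through Y67F-FXR replicate 2. The log2 fold change was 0.47 (95% CI -0.0025 to 0.94, edgeR unadjusted p = 0.0510, adjusted p = 0.376). Without FXR-WT replicate 1 it was 0.31.

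Rgn, also called SMP30 or regucalcin, encodes the gluconolactonase of ascorbate synthesis and binds calcium (chromosome X, 20126944-20139213, plus strand). Its levels were 352, 649.9 and 667 CPM in FXR-WT and 458, 303 and 574 CPM in Y67F-FXR. Low livers were found in both groups. The log2 fold change was -0.32 (95% CI -1.01 to 0.36, adjusted p = 0.725), and without FXR-WT replicate 1 it was -0.57, with an unadjusted p of 0.0460 and an adjusted p of 0.395. Rgn was the lowest of the 10 genes in fitted change and Oat the highest.

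**Figure D3:**
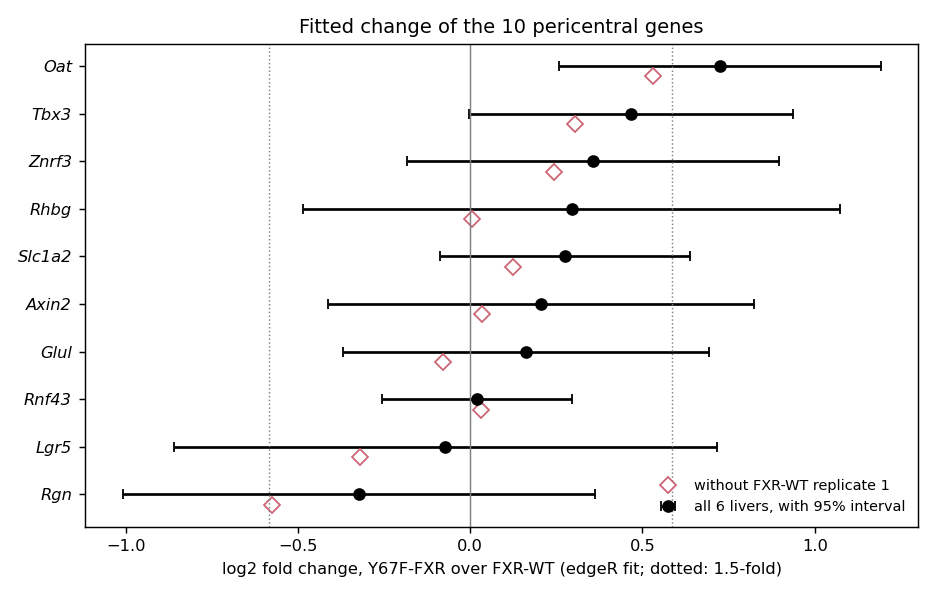
Fitted log2 fold change of Y67F-FXR over FXR-WT for the 10 genes from all 6 livers (filled points, with 95% confidence intervals) and without FXR-WT replicate 1 (open diamonds), with dotted lines at a fold change of 1.5. The values from all livers run from -0.32 (Rgn) to 0.72 (Oat), and only the interval of Oat lies wholly on 1 side of 0.

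The other genes of the Wnt pathway were read from a list of 65, of which 50 were tested. None was called by edgeR or by DESeq2, 28 were fitted higher and 22 lower, and their median log2 fold change was 0.054. The median was -0.016 without FXR-WT replicate 1, with 24 of the 50 fitted higher, -0.013 without Y67F-FXR replicate 1 and -0.0081 with library totals. FXR-WT replicate 1 was lowest for 20 of the 50 (40%), beside 21.2% of all tested genes, with a median deviation of -0.20. By role that deviation ran from -0.34 for the inhibitors and feedback genes to 0.0065 for the nuclear partners. At an unadjusted p under 0.05, 3 were higher in edgeR, Notum and the Wnt receptors Fzd8 and Fzd1, and 1 was lower, Wnt4. Of all tested genes 13.4% had such a p, and 6.75% had it and were higher. The groups did not overlap for 7 of the 50, all higher in Y67F-FXR, where 10.2% of all genes were apart in that direction. Fzd1 is named here after its value was seen. Among the ligands of the central vein, Wnt2 was at 1.27, 2.52 and 2.51 CPM in FXR-WT and 2.72, 3.49 and 3.48 CPM in Y67F-FXR. Its groups were apart, with a log2 fold change of 0.62 (adjusted p = 0.427) that was 0.36 without FXR-WT replicate 1. Wnt9b (log2 fold change 0.10) and Rspo3 (-0.10), an R-spondin, did not pass the test. Nor did Lgr4 (-0.093), an R-spondin receptor, Ctnnb1 (-0.16), which encodes β-catenin, or Tcf7l2 (0.20), a TCF factor. Notum, a secreted Wnt inhibitor, was at 44.9, 35.7 and 40.7 CPM in FXR-WT and 50.4, 55.6 and 51.2 CPM in Y67F-FXR, and its groups were apart (log2 fold change 0.37, adjusted p = 0.247). The groups overlapped for Wnt4, another ligand (log2 fold change -0.74, adjusted p = 0.348), which was -0.44 without FXR-WT replicate 1, the liver with its highest value. Gsk3a, a kinase that marks β-catenin for destruction, was among the most abundant of the list (0.16) and shares exon bases with another gene, so its counts are uncertain.

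The 22 other pericentral hepatocyte genes and the 20 periportal genes show where the 10 genes stand in the zonation of these livers. Of the pericentral ones 1 was called, Por, the electron donor of cytochrome P450 enzymes, at 449, 608 and 468 CPM in FXR-WT and 1015, 1326 and 1151 CPM in Y67F-FXR. Its log2 fold change was 1.20 (adjusted p = 0.0244). The call was lost without FXR-WT replicate 1, FXR-WT replicate 3, Y67F-FXR replicate 2 or Y67F-FXR replicate 3, with log2 fold changes of 1.11, 1.14, 1.08 and 1.21, and with the replicate number as a block (1.20, adjusted p = 0.0887). Over all alternatives the adjusted p ran from 4.78e-08 to 0.107. Cyp2e1, a pericentral cytochrome that oxidises ethanol, was at 7345, 14171 and 12436 CPM in FXR-WT and 13386, 11276 and 13451 CPM in Y67F-FXR (log2 fold change 0.17). Slc22a3, an organic cation transporter (1.29, adjusted p = 0.258), Lhpp, a phosphatase (0.63, adjusted p = 0.136), and the cytochromes Cyp2a5 (0.56) and Cyp2c29 (0.14) did not pass the test. DESeq2 called Por and Lhpp (DESeq2 adjusted p = 0.0224), 2 of the 22. Like Glul, Cyp2e1 was lowest in FXR-WT replicate 1. This liver was lowest for 14 of the 22 (63.6%), with a median deviation of -0.43. By role the median was -0.72 for the 9 cytochromes and partners (lowest there for 8), -0.88 for the 2 nuclear receptors, -0.29 for the 4 transporters and -0.051 for the 7 other enzymes and secreted proteins (lowest there for 2 and highest for 2). The median log2 fold change of the 22 was 0.16 with all livers and -0.037 without FXR-WT replicate 1, and with each of the other livers left out it ran from 0.12 (without Y67F-FXR replicate 3) to 0.34 (without FXR-WT replicate 2).

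Of the periportal genes 1 was called, G6pc, the glucose-6-phosphatase of gluconeogenesis (log2 fold change 3.42, adjusted p = 0.0244, from 1.46e-13 to 0.119 over the alternatives). Its call was lost without FXR-WT replicate 3, Y67F-FXR replicate 1 or Y67F-FXR replicate 3, with log2 fold changes of 3.40, 3.14 and 3.54, and with the replicate block (3.55). Pck1 (1.09, adjusted p = 0.0872) and Sds (1.49, adjusted p = 0.106) did not pass the main edgeR test. With length offsets edgeR called both, Pck1 (1.10, adjusted p = 0.0423) and Sds (1.52, adjusted p = 0.0275). Pck1 was also called by edgeR without FXR-WT replicate 2 (1.38, adjusted p = 0.0409). DESeq2 called 4 of the 20 higher, among them G6pc, Pck1 (DESeq2 adjusted p = 0.000497) and Sds (0.000906), and 1 lower. Sds shares exon bases with Plbd2, so its counts are uncertain. FXR-WT replicate 1 was lowest for 4 of the 20 periportal genes (20%), with a median deviation of 0.016. That median joins roles that went opposite ways in this liver, with -0.87 for the 3 gluconeogenic enzymes (lowest there for 2), 0.016 for the 10 urea cycle and amino acid enzymes and 0.78 for the 7 other periportal genes (highest there for 4). FXR-WT replicates 2 and 3 had medians of -0.25 and -0.31 over the 20 genes. For the gluconeogenic enzymes these livers were also low, at -0.28 and -0.76, and the 3 Y67F-FXR livers were at 0.79, 0.44 and 0.46. The median log2 fold change of the 20 periportal genes was 0.29, and 16 were fitted higher, beside 52% of all tested genes. At an unadjusted edgeR p under 0.05, 6 were higher and 1 was lower, and 6.75% of all tested genes were higher at such a p. Without FXR-WT replicate 1 the median was 0.43, with 17 fitted higher and 2 called, G6pc and Sds. In that run 12 of the 20 had such a p, beside 1528 of the 12453 genes. The urea cycle enzyme Ass1 (0.30) did not pass the test either.

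**Figure D4:**
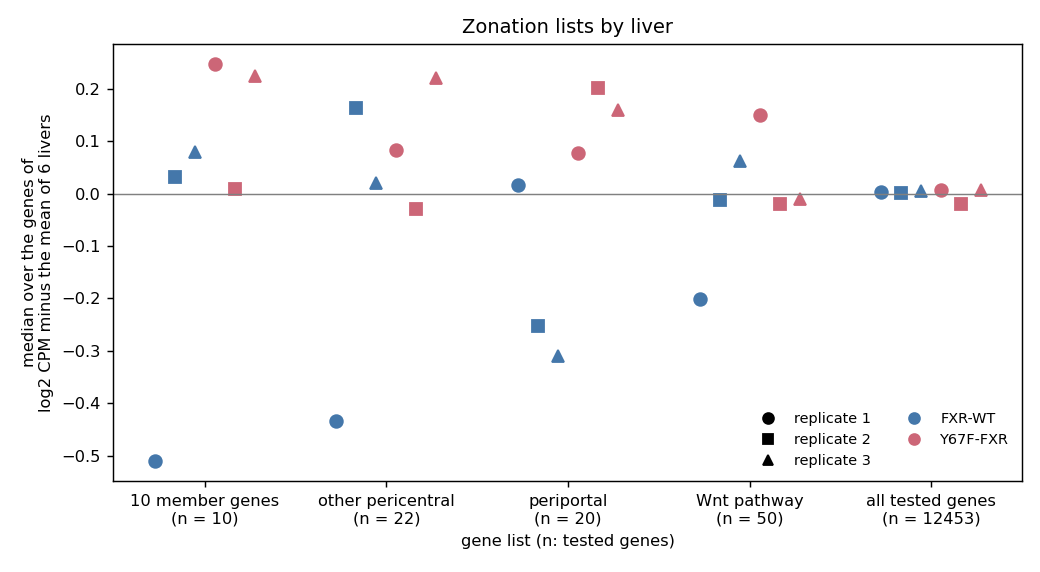
Median over the genes of a list of log2 CPM minus the mean of the 6 livers (vertical axis), 1 point a liver, for the 10 genes, 3 other lists and all tested genes. FXR-WT replicate 1 (blue circle) lies at -0.51 for the 10 genes, -0.43 for the other pericentral genes and -0.20 for the Wnt pathway. It lies at 0.016 for the periportal genes, a median that joins -0.87 for the gluconeogenic enzymes and 0.78 for the other periportal genes.

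Genes that share metabolites with Glul, Oat, Slc1a2 and Rgn were read from a list of 18, of which 15 were tested. There 2 were called, both higher in Y67F-FXR. Got1, the cytosolic aspartate aminotransferase, which makes and uses glutamate, was at 89.3, 105 and 78.5 CPM in FXR-WT and 463, 485 and 436 CPM in Y67F-FXR (log2 fold change 2.34, adjusted p = 0.00141). Slc25a22, a mitochondrial glutamate carrier, was at 176, 140.2 and 143 CPM and at 407, 456 and 362 CPM (log2 fold change 1.42, adjusted p = 0.0139). Got1 kept its call in every alternative run, with an adjusted p of at most 0.0202 in them, and Slc25a22 lost it without FXR-WT replicate 3 (log2 fold change 1.37, adjusted p = 0.0614) and with the replicate number as a block (1.42, adjusted p = 0.0867, the highest over its alternatives). The other 13 included Slc25a15, the mitochondrial ornithine carrier (0.52), Slc38a3 (0.11) and Slc38a4 (0.38), which carry amino acids, and Akr1a1 (0.14), which acts in ascorbate synthesis, and none of these passed the test. The median log2 fold change of the list was 0.11.

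**Figure D5:**
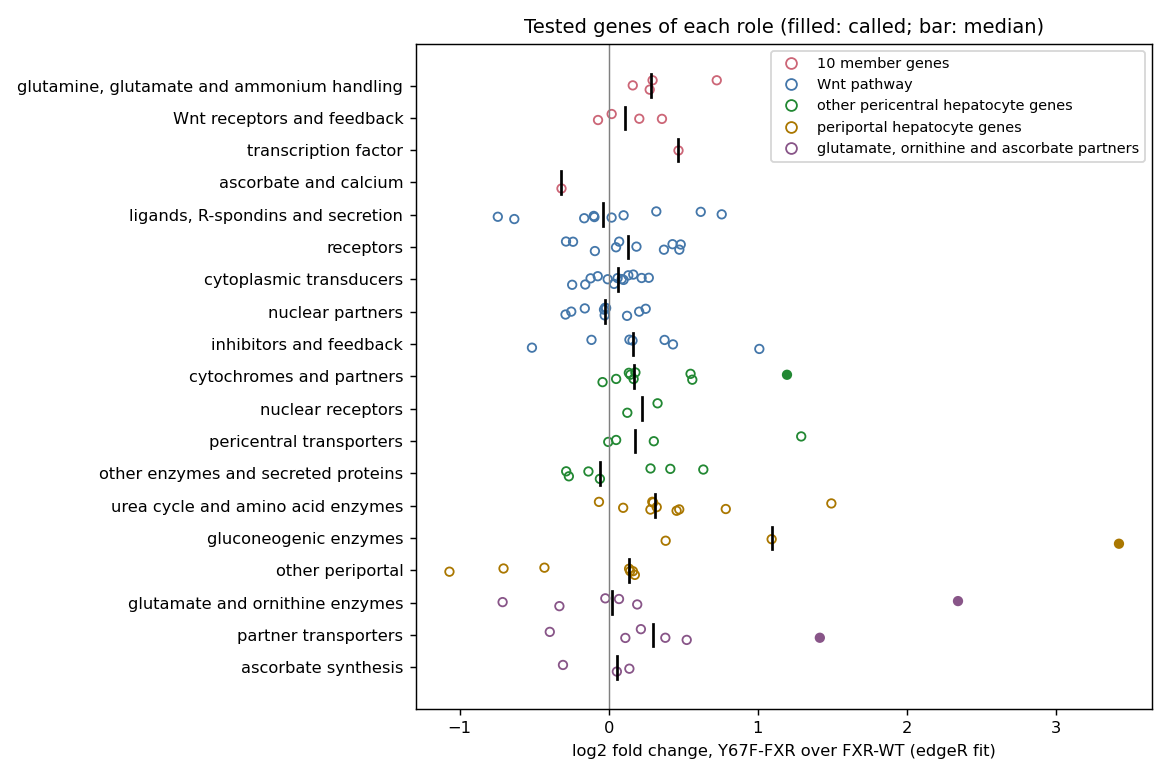
Fitted log2 fold change of Y67F-FXR over FXR-WT (horizontal axis) of each tested gene by role, with filled points for called genes and a bar for each role's median. None of the 10 genes is called, and the filled points are Por, G6pc, Got1 and Slc25a22.

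Markers of other cell types were read beside these results. Of 43 markers 38 were tested and 0 were called by edgeR in the main fit, while DESeq2 called 1, Lrat. The edgeR adjusted p of Lrat was 0.0540 in the main fit. Lrat was called by edgeR with the size factors of DESeq2 (adjusted p = 0.0498), with no filter (0.0364) and with length offsets (0.0189). In edgeR 4 of the 38 had an unadjusted p under 0.05 and all 4 had lower values in Y67F-FXR. Of all 12453 tested genes 13.4% had such a p, and 830 genes had it and were lower. The 4 markers were Lrat (log2 fold change -1.15), Col1a1 (-0.77) and Acta2 (-1.95, named after its value was seen) of stellate cells and Lyve1 (-0.89) of endothelium. Of the 8 endothelial markers 5 were fitted higher (median log2 fold change 0.015), and of the 8 stellate markers 7 were fitted lower (median -0.33). The summed CPM of the liver endothelium markers was 200.5 to 226 in FXR-WT and 204 to 217 in Y67F-FXR, and the groups overlapped. The hepatocyte markers summed to between 103790 and 125994 CPM, Kupffer cell and leukocyte markers to between 108 and 213 CPM, and the haemoglobin genes Hba-a1, Hba-a2 and Hbb-b1 were listed at 0 in all libraries. The fourth erythrocyte marker, Alas2, an enzyme of haem synthesis in red cells, was at 80.1 to 89.3 CPM in FXR-WT and 86.5 to 114 CPM in Y67F-FXR. Reads that mapped to several places were not counted, so zeros of haemoglobin genes, which have near-identical copies, do not show that red cells were absent. In FXR-WT replicate 1 the hepatocyte sum was 121286 CPM, within the range of the other livers, and the endothelial sum was 222 CPM, also within it. Its stellate cell sum of 223 CPM was the highest of the 6 livers (149 to 212 CPM in the others), 5 of the 8 stellate markers were highest there, as were 20.7% of all tested genes, and their median deviation was 0.56. Its cholangiocyte sum of 46.2 CPM was the lowest (51.8 to 71.2 CPM in the others). Alb (log2 fold change 0.010), Apoa1 (0.037) and Trf (0.020), abundant hepatocyte products, did not pass the test, and all 3 had values below 0 when library totals were used for scaling. The part of these markers in the deviation of FXR-WT replicate 1 was not tested.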

How the data were processed

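RNA-seq libraries of 6 livers, 3 per group, were analysed. The authors deposited counts per gene, not normalized, from reads aligned with STAR (2.5.3a in the submitters' processing notes) and counted by featureCounts (version 1.4.6-p4) against the UCSC annotation of mm9, each read of a pair singly, without strand, and without reads on several genes or places. A deposited table of the authors' own comparison (fold changes, p-values and false discovery rates) was not used. Groups came from the labels.

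The fit used edgeR 4.0.16 in R 4.3.3 (filterByExpr, TMM, glmQLFit and glmQLFTest, no covariates), with DESeq2 1.42.0 as an alternative. Calls required a Benjamini-Hochberg adjusted p below 0.05 together with a fitted fold of more than 1.5. Log2 CPM used a prior count of 2. The smallest library had 19551113 reads, so genes at a few CPM rest on few reads. Standard errors come from the F statistic. The fits were tested on simulated data. Alternatives were other scaling, DESeq2, other filters, the replicate block, length offsets (loess, span 0.3) and each liver left out. The 10 genes, the lists and the tests were chosen with earlier results of these data known. Named genes are the 10, Nr1h4, the called genes, the 3 with smallest adjusted p and the 3 most abundant of each list, Wnt2, Wnt9b, Rspo3, Lgr4, Ctnnb1 and Tcf7l2, and the 3 genes most like Glul. One gene under this rule is not reported here. Promoter windows came from RefSeq on GRCm38.p6, and coordinates of genes are in mm9.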

Additional observations from a re-analysis of the deposited data

How the results depend on the processing

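With 1 liver left out at a time, values whose sign changed ranged from -0.080 (without FXR-WT replicate 1) to 0.34 for Glul, -0.35 to 0.27 for Lgr5 (above 0 without FXR-WT replicate 3 or Y67F-FXR replicate 2) and -0.051 to 0.076 for Rnf43 (below 0 without the same livers). They ranged from -0.030 to 0.20 for Wnt9b, -0.28 to 0.0063 for Rspo3, -0.30 to 0.055 for Lgr4, -0.071 to 0.36 for Cyp2e1, -0.030 to 0.26 for Akr1a1, -0.049 to 0.052 for Alb, -0.25 to 0.26 for Apoa1, -0.025 to 0.099 for Trf, -0.12 to 0.24 for Ttc7b and -0.64 to 0.31 for Serpina12. With library totals, which moved the median of all genes to -0.057, Rnf43 was -0.053, Alb -0.062, Apoa1 -0.040 and Trf -0.051. The cause of these changes was not tested. Of 130 values of the 10 genes over 13 alternatives, 123 kept their direction and side of the threshold, 6 changed sign and 1 gained a call, Oat with DESeq2.

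DESeq2 therefore called 1 of the 10 genes, and it left 483 adjusted p-values as NA. Over all genes, 53 lower and 68 higher calls became 216 and 215 with DESeq2 and 124 and 123 with length offsets, and lower calls were 81 with no filter. With 1 liver left out they ranged from 7 to 33 lower and from 2 to 35 higher, with the fewest without FXR-WT replicate 3. Library totals gave 43.3% of calls higher beside 56.2%. The median of the glutamate, ornithine and ascorbate list was 0.043 with library totals and 0.034 to 0.12 with 1 liver left out, and the periportal median was 0.17 to 0.43. Por lost its call in 4 of the 6 leave-outs and G6pc in 3, with folds near those of all livers. Lgr5, with 54 to 144 reads per library, had a CV of 39.3% in FXR-WT. Glul, with at least 13251 reads, had one of 31.5% there, with FXR-WT replicate 1 at 648 CPM beside 1247 and 1135 CPM. In Y67F-FXR the CV of Glul was 5.22%. Rgn, with at least 5555 reads, had a CV of 31.9% in FXR-WT and 30.5% in Y67F-FXR. Spread between livers at high depth was therefore large for some genes and groups and small for others.

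The groups share replicate numbers in the labels. Deviations of same-numbered livers correlated at -0.52, -0.080 and 0.12, so the numbers were not taken to pair the livers, and 1 of 6 livers correlated best with its own number. With the replicate block, calls fell to 6 lower and 2 higher, none of them among the 10 genes, Por, G6pc and Slc25a22 were no longer called, and Serpina12 was 0.53.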

Other observations

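Over the 6 livers, Nhlrc2 (Pearson r = 0.981), Ttc7b (0.978) and Serpina12 (0.975) had the log2 CPM most like that of Glul. The search covered 7168 genes averaging 10 CPM or more, of which 47 had an r of 0.9 or more. The points share their libraries, so this is a description. Glul itself was set apart mainly by its low value in FXR-WT replicate 1, so the search picks genes that are low in that liver. Nhlrc2 was at 10.8, 16.6 and 16.0 CPM in FXR-WT and 16.0, 16.7 and 16.7 CPM in Y67F-FXR, and Serpina12 was at 3.62 CPM in FXR-WT replicate 1 and at 33.4 to 66.7 CPM in the other livers. The r of Nhlrc2 rests on that 1 liver, since its other 5 values differ little.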
